A study of Homo sapiens with 8 samples.

Results

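The genes described here are 36 genes of glucose use and of the response to low oxygen, taken as a named list from a count table of 28518 genes. They are 21 genes of glycolysis (3 transporters, 15 enzymes and 3 regulators), 13 genes of oxygen sensing and the hypoxia response, and the 2 glucose-responsive genes TXNIP and ARRDC4. All 36 were found by name, and 35 of them had enough counts to be tested. EGLN3 did not, with 2 to 14 counts per library.

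The study used HaCaT, an immortalised line of human keratinocytes, with CARD14 knocked out in every group, and counted RNA in 8 libraries. CARD14 is an adaptor protein found in epithelia that links to NF-kB signalling. The cells grew in low-glucose medium with pyruvate and serum, were transfected with 9 ug of a plasmid per 10 cm dish, had their medium changed after 2 h and were sorted for GFP 24 h after transfection, per the labels' protocols. Each plasmid encoded CARD14, a T2A peptide and eGFP, with CARD14 as wild type (WT) or as the hypomorphic variant R820W, N737H or I593T. Each of these 4 groups had 2 libraries, titled A and B, and the study's text speaks of 2 independent experiments. Here each letter is taken to be 1 experiment, a reading that no label states. The plasmid was transient and under a promoter that the labels do not name, the number of knockout clones is not stated, and no oxygen level is given. No library of cells without a plasmid was analysed here.

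Glycolysis converts glucose to pyruvate in the cytosol. Glucose enters through GLUT transporters, and the lactate made from pyruvate leaves through monocarboxylate transporters. When oxygen is low, prolyl hydroxylases such as EGLN1 no longer mark HIF1A, the oxygen-regulated subunit of hypoxia-inducible factor 1, for degradation, and HIF1 then raises transcription of many glycolytic genes and of targets such as CA9, VEGFA and BNIP3. TXNIP and ARRDC4 are arrestin-domain proteins that limit glucose uptake, and their transcription follows glucose metabolites through MondoA (MLXIP) and ChREBP (MLXIPL), which bind carbohydrate response elements made of a pair of E-box-like sequences.

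The promoters of 4 genes that differed between the letters are shown, with matches to short sequences linked to these 2 systems marked. They are a choice among the genes called, as ALDOC and SLC16A3 also had ACGTG and are not shown. BNIP3 and CA9 differed between the letters in opposite directions. Whether these sequences had a part in the differences was not tested. Each is 300 bases long, from 250 bases before the start site to 50 after, read 5′ to 3′ on the strand of the gene, from RefSeq on GRCh38.p14. For TXNIP at chr1:145996530-145996829 (minus strand) and ARRDC4 at chr15:97960453-97960752 (plus strand), capitals mark each match to CACGNG on either strand. For BNIP3 at chr10:131981874-131982173 (minus strand) and CA9 at chr9:35673678-35673977 (plus strand), capitals mark each match on either strand to ACGTG, the core of the hypoxia response element.
TXNIP: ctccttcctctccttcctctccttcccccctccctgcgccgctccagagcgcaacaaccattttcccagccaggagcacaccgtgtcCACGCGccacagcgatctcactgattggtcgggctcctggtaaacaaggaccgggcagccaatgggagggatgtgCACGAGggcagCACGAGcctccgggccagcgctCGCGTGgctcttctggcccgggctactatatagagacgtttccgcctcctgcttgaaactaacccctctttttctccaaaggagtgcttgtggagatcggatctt
ARRDC4: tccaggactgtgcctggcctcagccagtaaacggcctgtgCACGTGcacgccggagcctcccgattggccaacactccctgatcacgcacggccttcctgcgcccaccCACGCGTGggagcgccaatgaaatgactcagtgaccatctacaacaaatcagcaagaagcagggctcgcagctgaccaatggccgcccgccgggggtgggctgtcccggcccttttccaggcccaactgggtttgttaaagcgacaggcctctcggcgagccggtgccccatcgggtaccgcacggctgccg
BNIP3: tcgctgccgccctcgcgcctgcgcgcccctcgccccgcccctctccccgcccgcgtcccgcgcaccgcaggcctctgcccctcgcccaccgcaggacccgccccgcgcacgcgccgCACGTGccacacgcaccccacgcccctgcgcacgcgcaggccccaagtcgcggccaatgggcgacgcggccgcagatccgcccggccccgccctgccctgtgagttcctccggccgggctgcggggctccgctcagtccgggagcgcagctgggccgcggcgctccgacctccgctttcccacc
CA9: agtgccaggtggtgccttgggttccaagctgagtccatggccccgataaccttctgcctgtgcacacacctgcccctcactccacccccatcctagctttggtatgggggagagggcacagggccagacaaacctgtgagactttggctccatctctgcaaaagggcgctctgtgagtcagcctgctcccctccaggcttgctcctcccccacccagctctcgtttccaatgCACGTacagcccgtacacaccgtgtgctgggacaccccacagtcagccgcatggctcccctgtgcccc
The TXNIP window held 4 matches to CACGNG, and the middle pair formed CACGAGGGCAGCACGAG, with 5 bases between the matches, starting 88 bases before the start site. A pair spaced in this way (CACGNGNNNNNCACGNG, either strand) was present in 20 of 35116 promoter windows of the RefSeq table, or 0.057%. Of the genes described here, TXNIP and P4HA1 had it. ARRDC4 had 3 matches to CACGNG, of which 2 overlap as CACGCGTG, and no pair with 5 bases between. A lone CACGNG was common, in 30.5% of all windows. It was present in 17 of 40 windows of glycolysis genes and in 6 of 12 windows of oxygen and hypoxia genes. BNIP3 had ACGTG on both strands of 1 CACGTG, and CA9 had 1 match to ACGTG 18 bases before its start site. That CACGTG of BNIP3 is also a match to CACGNG. The BNIP3 window held 3 matches to CACGNG, as many as ARRDC4, and the others are not in capitals. ACGTG was present in 21.4% of all windows, in 45.0% of the 40 windows of glycolysis genes and in 41.7% of the 12 windows of oxygen and hypoxia genes, some of them overlapping windows of 1 gene. Sequences were matched for 32 of the 36 genes, with 55 windows, and not for SLC2A3, VEGFA, NDRG1 and BNIP3L. For TXNIP, the more upstream of its 2 windows is shown. A match is a description of these letters, and no binding was measured.

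Total counts were 17892608 to 24629860 per library. The keratinocyte markers (KRT5, KRT14, TP63, KRT17, EGFR, DSP and PKP1) summed to 3005 to 4956 CPM (counts scaled to the normalised library size) in every library. The summed markers of fibroblasts (0.504 to 2.23 CPM), leukocytes (0.0989 to 1.11), melanocytes (1.65 to 3.10), endothelial cells (1.09 to 2.85) and erythroid cells (0.322 to 1.45, with 3 of 5 markers at 0) were near 0. CARD14 RNA was present in all 8 libraries, at 444 to 1410 CPM, and was lowest in the A libraries of N737H and I593T. On the first principal component (33.3% of the variance), all A libraries lay apart from all B libraries. The B library of N737H had a count for 21059 genes, against 17836 to 18855 in the other libraries.

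The cells expressed nearly the whole glycolytic pathway at high levels. Per kilobase of exon, which allows genes to be compared, GAPDH was highest with a mean of 1828 CPM per kb over the 8 libraries. TPI1 (1228), PKM (1169), ENO1 (1007), ALDOA (794), LDHA (654) and PGAM1 (430), enzymes from aldolase onward, followed in CPM per kb. PGK1, which makes ATP from 1,3-bisphosphoglycerate, was at 158 CPM per kb. The steps before aldolase were lower, with GPI at 60.4, PFKP at 55.3, PFKM at 30.4, PFKL at 12.7 and HK2, the hexokinase that traps glucose in the cell, at 10.8 CPM per kb. The main glucose transporter SLC2A1 (GLUT1) stood at 34.3 CPM per kb. SLC2A3 (GLUT3) and SLC16A3 (MCT4, the lactate exporter) were at 1.65 and 1.77. Among regulators, PFKFB3, which makes the allosteric activator of phosphofructokinase, was at 6.88 CPM per kb, its paralog PFKFB4 at 0.407, and PDK1, the kinase that inhibits pyruvate dehydrogenase, at 1.83. HIF1A was the highest of the oxygen and hypoxia genes at 52.9 CPM per kb, followed by the peptide hormone ADM (25.9) and the collagen prolyl hydroxylase P4HA1 (23.2), with its relative P4HA2 at 15.1. BNIP3L, a mitophagy receptor, stood at 15.4 and its paralog BNIP3 at 2.44. Further hypoxia targets were the growth factor VEGFA at 5.00, the stress gene NDRG1 at 3.94, the histone demethylase KDM3A at 3.55 and ANKRD37 at 2.02 CPM per kb. TXNIP stood at 10.4 and ARRDC4 at 0.721. EGLN1 was at 1.29, and the lowest levels were those of CA9 (0.312), the neuronal enolase ENO2 (0.126) and EGLN3 (0.0561). ALDOC, the brain-type aldolase, was at 4.19 CPM per kb. Gene lengths are merged exons of GENCODE 29, which may differ from the gene models the authors counted on.

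**Figure D1:**
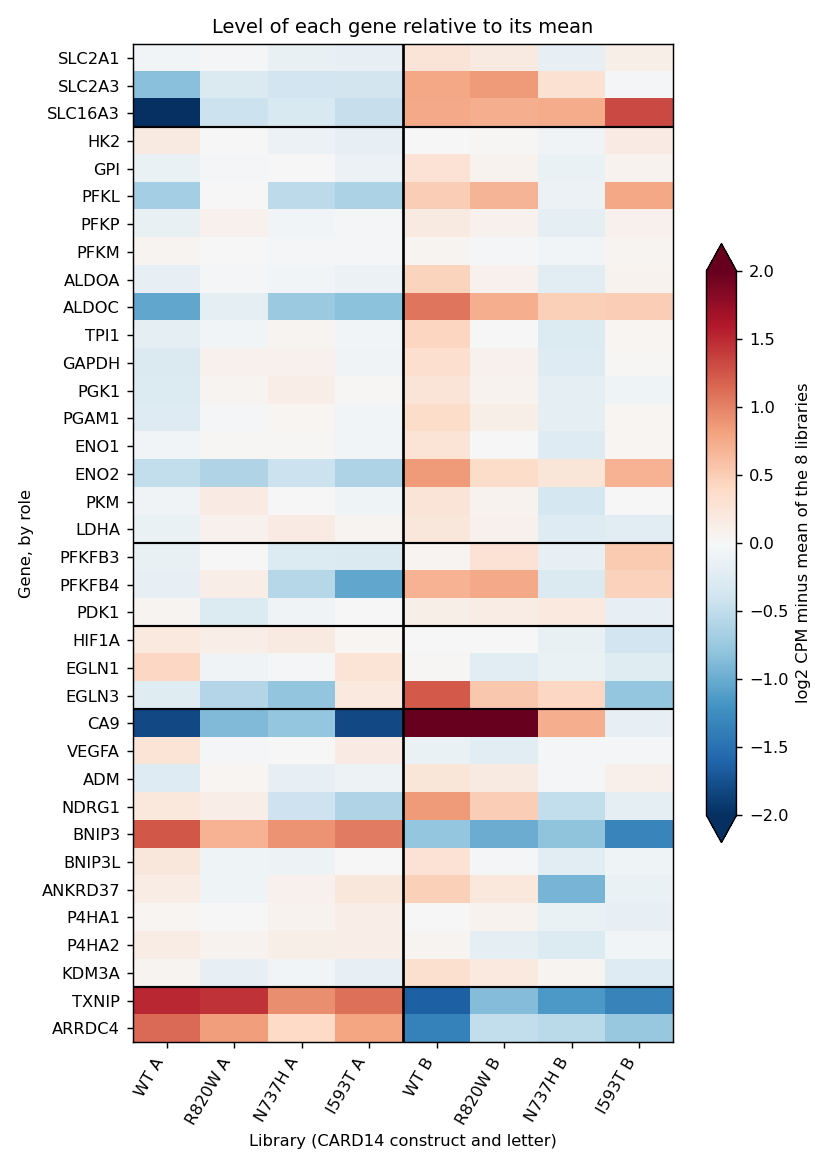
Level of the 36 genes (rows, ordered by role) in the 8 libraries (columns, A left of the vertical line and B right of it), as log2 CPM minus the mean of the gene over the 8 libraries, with colours capped at -2 and 2. TXNIP, ARRDC4 and BNIP3 are red in all 4 A libraries and blue in all 4 B libraries, while SLC16A3, ALDOC and SLC2A3 are blue in A and red or near white in B.

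The calls within these genes lay between the 2 letters, and none lay between CARD14 constructs. TXNIP and ARRDC4 were both lower in B, by 5.64-fold and 3.07-fold, and so was the mitophagy receptor BNIP3, by 3.92-fold. The lactate exporter SLC16A3 (3.31-fold), the aldolase ALDOC (2.62-fold) and the liver-type phosphofructokinase PFKL (1.89-fold) were higher in B, as was CA9. Of the 35 genes tested, 7 passed the threshold of an edgeR adjusted p of 0.05 (20%), against 480 of all 14834 genes tested (3.24%). Of the 7, 4 were higher in B (1.71% of all genes were) and 3 lower (1.52% of all genes were). At an unadjusted p under 0.05 the counts were 15 of 35, or 42.9%, and 3417 of 14834, or 23%. These counts include CA9, which had enough counts to be tested through its B libraries only, so the test could call it in 1 direction alone. Among genes with at least 10 counts in at least 6 libraries, which leaves CA9 out, 6 of 33 were called, against 440 of 13504. The list was drawn up with earlier results of these libraries known. The labels do not say what differed between A and B beyond the letter, so handling, day and library preparation cannot be told apart. In bulk RNA, fewer cells with a transcript and less of it per cell cannot be told apart either. No label says that the libraries of a group came from separate cultures, so p-values cover only the spread among these 8 libraries, which may be technical.

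In the sentences that follow, the 4 values of a letter are always in the order WT, R820W, N737H and I593T. TXNIP stood at 67.2, 64.1, 44.7 and 50.5 CPM in A and at 7.48, 12.9, 10.5 and 9.30 CPM in B. Every A library was thus above every B library, with no overlap. The means were 56.6 ± 10.8 CPM in A and 10.0 ± 2.26 in B (SD over the 4 constructs, n = 4). The log2 fold change, B against A within construct, was -2.50 ± 0.18 (SE; 95% interval -2.93 to -2.07; edgeR adjusted p = 0.00356), the eighth smallest p of all genes tested. ARRDC4, its paralog, stood at 5.59, 4.49, 3.30 and 4.35 CPM in A and at 0.917, 1.74, 1.67 and 1.43 CPM in B. The letters did not overlap, and the WT libraries were both the highest of A and the lowest of B. ARRDC4 had a log2 fold change of -1.62 ± 0.30 (edgeR adjusted p = 0.0406). Per kilobase of exon, TXNIP was at 17.6 CPM in A and 3.13 in B.

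BNIP3, a hypoxia-induced receptor of mitophagy, stood at 13.3, 9.11, 10.5 and 11.6 CPM in A and at 3.23, 2.77, 3.15 and 2.18 CPM in B. Again the letters were fully apart, and its log2 fold change was -1.97 ± 0.18 (edgeR adjusted p = 0.00511). Its paralog BNIP3L did not differ in this way, at 55.7 to 70.0 CPM in A and 51.1 to 72.4 in B (log2 fold change -0.03 ± 0.09; 95% interval -0.23 to 0.17). CA9, the membrane carbonic anhydrase often used as a marker of hypoxia, had 0, 2, 2 and 0 counts in A and 42, 22, 9 and 4 in B. These were totals of 4 counts in A and 77 in B, and every B library was above every A library, with the 2 highest values in WT and R820W. The fitted log2 fold change of CA9 was 4.14 ± 0.84 (edgeR adjusted p = 0.0488). As its A counts were too low to pass the filter, its direction was set by the filter, and the call is a description only.

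HIF1A RNA was at 255, 244, 253 and 229 CPM in A and at 222, 225, 201 and 171 CPM in B. All 4 A values were above the 4 B values, by a small margin (log2 fold change -0.27 ± 0.09; 95% interval -0.47 to -0.06), and HIF1A did not pass the threshold (edgeR adjusted p = 0.134). EGLN1, the main oxygen-sensing hydroxylase, was at 12.1, 8.65, 8.92 and 11.0 CPM in A and 9.22, 7.72, 8.27 and 7.62 in B, with overlap between the letters (log2 fold change -0.30 ± 0.14, edgeR adjusted p = 0.248). NDRG1 stood at 16.1, 15.3, 10.5 and 9.14 CPM in A and 25.4, 19.8, 9.94 and 12.3 in B, also with overlap (log2 fold change 0.35 ± 0.15, edgeR adjusted p = 0.209). The other hypoxia targets tested differed by -0.23 (P4HA2) to 0.25 (ADM) on the log2 scale, with VEGFA at -0.21, ANKRD37 at -0.17, P4HA1 at -0.12 and KDM3A at 0.16. None of these 6 passed the threshold. Over the 12 oxygen and hypoxia genes tested, the median log2 fold change was -0.15 (4 above 0, 8 below), against 0.03 over all genes. That median was 0.01 without the B library of N737H. The genes of this group therefore did not share a direction.

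The glycolysis genes leaned the other way, with a median log2 fold change of 0.15 between the letters and 19 of 21 values above 0, against 7953 of 14834 genes above 0. Without either WT library the median was 0.05 and 13 of 21 values were above 0, and without either N737H library it was 0.25 and all 21 were. Only 3 of the 21 passed the threshold. SLC16A3 stood at 1.37, 5.40, 5.92 and 5.32 CPM in A and at 12.4, 12.2, 12.3 and 18.5 CPM in B, with no overlap and with the WT library of A far below the rest (log2 fold change 1.73 ± 0.33, edgeR adjusted p = 0.0437). ALDOC stood at 3.62, 6.63, 4.46 and 4.23 CPM in A and at 15.8, 12.5, 10.4 and 10.5 CPM in B. Its letters did not overlap either, and the log2 fold change was 1.39 ± 0.21 (edgeR adjusted p = 0.0257). PFKL was at 21.8, 35.3, 24.2 and 22.4 CPM in A and at 49.0, 56.1, 32.4 and 59.6 in B. Its values overlapped, since N737H in B was below R820W in A, but B was above A within each of the 4 constructs (log2 fold change 0.92 ± 0.17, edgeR adjusted p = 0.0417).

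The other transporters and regulators had positive values that missed the threshold. SLC2A3 stood at 3.30 to 4.86 CPM in A and 5.79 to 10.8 in B, with no overlap (log2 fold change 0.96 ± 0.23, edgeR adjusted p = 0.0725), and passed with no filter on low counts (0.0406) and in DESeq2 (0.0110). SLC2A1 was at 130, 133, 123 and 122 CPM in A and at 162, 153, 121 and 148 in B (log2 fold change 0.19 ± 0.09, edgeR adjusted p = 0.250). PFKFB4 was at 1.19, 1.48, 0.873 and 0.604 CPM in A and 2.22, 2.34, 1.08 and 1.88 in B, and its letters overlapped as those of SLC2A1 did (log2 fold change 0.87 ± 0.32, edgeR adjusted p = 0.165). PFKFB3 (0.35) and PDK1 (0.15) did not pass. ENO2, at 0.201 to 0.242 CPM in A and 0.443 to 0.724 in B, had a log2 fold change of 1.35 ± 0.44 (edgeR adjusted p = 0.131) and, like CA9, had enough counts to be tested through its B libraries only.

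The abundant enzymes differed little. ALDOA was at 1680, 1832, 1829 and 1747 CPM in A and at 2581, 2013, 1611 and 1990 in B, where the B libraries held both the highest value (WT) and the lowest (N737H), so the letters overlapped (log2 fold change 0.19 ± 0.13, edgeR adjusted p = 0.435). HK2, GPI, PFKP, PFKM, TPI1, GAPDH, PGK1, PGAM1, ENO1, PKM and LDHA had log2 fold changes between -0.10 (LDHA) and 0.15 (PGAM1), none past the threshold. GAPDH had a 95% interval of -0.27 to 0.45. The ratio of a minor to a major isoform was compared in 4 pairs, chosen after their values were seen. Per kilobase of exon, ALDOC was 0.254 to 0.428% of ALDOA in A and 0.626 to 0.765% in B. ENO2 was 0.00641 to 0.00751% of ENO1 in A and 0.0155 to 0.0197% in B. SLC2A3 was 2.58 to 3.84% of SLC2A1 in A and 3.99 to 7.19% in B, and PFKL was 14.2 to 20.5% of PFKP in A and 22.6 to 34.4% in B. None of the 4 ratios overlapped between the letters, which describes these pairs only. ALDOC, ENO2 and SLC2A3 already did not overlap on their own, and ENO2 was tested through its B libraries only. Ratios of other gene pairs were not computed.

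In all, 10 of the 35 genes (28.6%) had CPM values that did not overlap between the letters, against 18% of all genes. These include CA9 and ENO2, both tested through B only, and among genes with at least 10 counts in at least 6 libraries it was 8 of 33 (24.2%), against 18.6% of all such genes. A was above B in HIF1A, BNIP3, P4HA2, TXNIP and ARRDC4, and B above A in SLC2A3, SLC16A3, ALDOC, ENO2 and CA9. The calls depended on single constructs. Without the A library of R820W no gene passed (15588 genes tested), and the adjusted p of TXNIP was 0.0583. TXNIP kept its call in the other 7 fits that each left out 1 library (log2 fold change -2.63 to -2.29 over all 8) and BNIP3 in 6 of 8 (-2.05 to -1.84). ARRDC4, ALDOC, PFKL and SLC16A3 kept theirs in 4 of 8, losing them without any R820W or I593T library. Reads of abundant enzymes with processed pseudogenes, GAPDH among them, may have been shared with those copies, and how the counting treated them is not given in the sources used here.

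**Figure D2:**
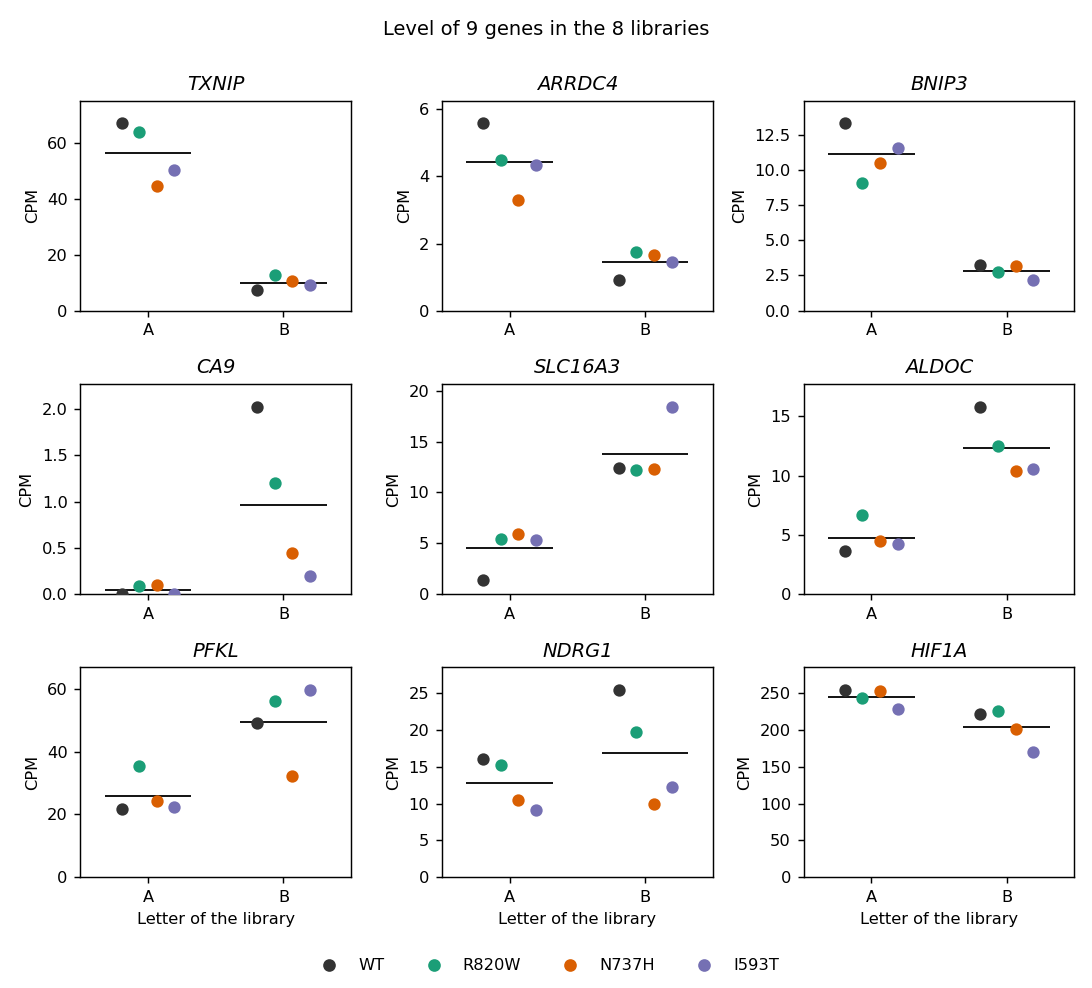
CPM of 9 genes in each of the 8 libraries (linear axes from 0), by letter; colours give the CARD14 construct and horizontal lines the mean of the 4 libraries. TXNIP, ARRDC4 and BNIP3 are higher in every A library, SLC16A3, ALDOC and CA9 in every B library, and NDRG1 overlaps between letters with WT and R820W above N737H and I593T in both.

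**Figure D3:**
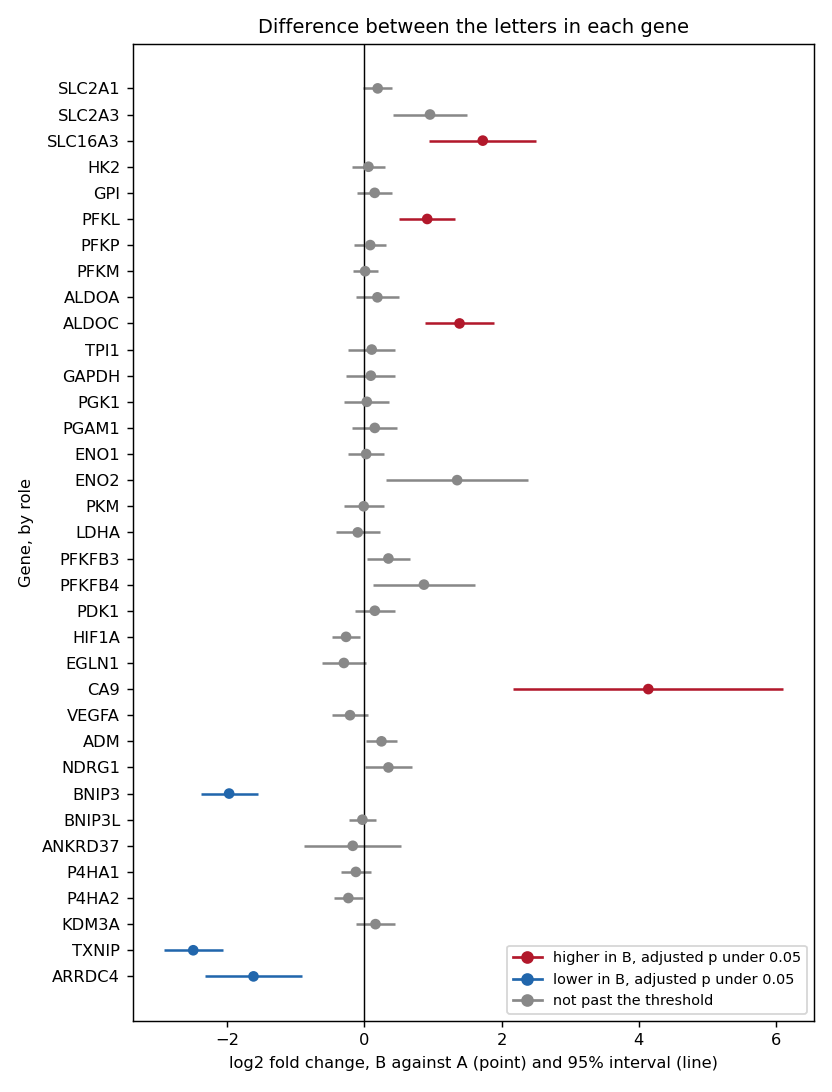
Fitted log2 fold change, B against A with construct in the model, of the 35 genes tested (points) with 95% intervals (lines). Blue marks the 3 genes lower in B and red the 4 higher in B at an edgeR adjusted p under 0.05; most glycolytic enzymes lie near 0.

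Genes near these in the pathway, from lists that were likewise drawn up with earlier results known, held a few calls between the letters. The counts here and in the next paragraph stand beside 3.24% of all genes called and 23% at an unadjusted p under 0.05. Of 12 HIF subunits and regulators tested, 1 passed. This was EPAS1, which encodes HIF2A, the other oxygen-regulated HIF subunit. EPAS1 stood at 8.38, 6.84, 5.72 and 5.52 CPM in A and at 17.3, 15.3, 12.3 and 18.5 in B (2.40-fold higher; log2 fold change 1.26 ± 0.16, edgeR adjusted p = 0.0151). Its letters did not overlap, and it ran opposite to the small difference of HIF1A. Of 28 further hypoxia targets tested, 1 passed, the circadian repressor BHLHE40 (log2 fold change 1.00 ± 0.15, edgeR adjusted p = 0.0260). That is near the share over all genes.

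Among 13 genes of the MondoA and thioredoxin systems, 1 was lower and 2 were higher in B. TXNRD1, the reductase of thioredoxin, which TXNIP binds, was lower (log2 fold change -0.81 ± 0.13, edgeR adjusted p = 0.0285), at 351, 222, 224 and 248 CPM in A and 144, 140, 150 and 151 in B. The arrestin-domain gene ARRDC3 (0.68 ± 0.12, edgeR adjusted p = 0.0380) and the arrestin ARRB1 (1.30 ± 0.25, edgeR adjusted p = 0.0430) were higher in B, so that ARRDC3 ran opposite to its relatives TXNIP and ARRDC4. Of 10 further transporters, the monocarboxylate transporter SLC16A7 (MCT2) passed, higher in B (0.93 ± 0.15, edgeR adjusted p = 0.0285). Of 7 further glycolysis genes, TIGAR, a fructose bisphosphatase listed under its older symbol, passed, lower in B (-0.43 ± 0.08, edgeR adjusted p = 0.0459). Between the letters, no gene passed among 11 of pyruvate entry (PDHA1 at a mean of 325 CPM and DLD at 256 were the highest, and 2 had an unadjusted p under 0.05) or among 7 of the pentose phosphate pathway (TALDO1 at 304 and TKT at 201 CPM, with 0 such genes). As no gene passed without the A library of R820W, these calls too were lost there. Of the 7 keratinocyte markers, the desmosomal PKP1 passed, higher in B (0.84 ± 0.13, edgeR adjusted p = 0.0245).

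The question the series put was whether the CARD14 variants differ from WT. No gene described here passed the edgeR test for any variant, and neither did any other gene. For R820W, N737H and I593T against WT, edgeR called 0 of 35 genes and 0% of all 14834, with 0, 2 and 1 of the 35 and 154, 362 and 212 of all genes at an unadjusted p under 0.05. DESeq2 and limma voom also called none of the 35, although DESeq2 called 3 other genes for I593T. The 3 comparisons share the same 2 WT libraries. The spread within each group holds the difference between the letters, so the intervals were wide for the genes that differed by letter. TXNIP had a log2 fold change against WT of 0.05 ± 1.19 with R820W (95% interval -2.69 to 2.78), -0.44 ± 1.19 with N737H (-3.19 to 2.32) and -0.32 ± 1.19 with I593T (-3.06 to 2.43). These intervals reach several-fold differences of TXNIP in either direction. ARRDC4 had -0.05 ± 0.87, -0.39 ± 0.88 and -0.16 ± 0.87. For HIF1A the values were -0.02 ± 0.20, -0.07 ± 0.20 and -0.25 ± 0.20, with a lower bound of -0.70 for I593T.

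NDRG1, a stress gene induced by hypoxia, had the smallest p of these genes against WT. Its values given above were lower with N737H and I593T than with WT and R820W in both letters, and the groups did not overlap. This split was chosen after the values were seen, and how many of all genes share it was not counted. The log2 fold change was -1.02 ± 0.28 with N737H (95% interval -1.67 to -0.37) and -0.95 ± 0.28 with I593T (-1.60 to -0.31). Both had an unadjusted p under 0.05, and the edgeR adjusted p of NDRG1 was 1.00 in both. With R820W it was -0.25 ± 0.28. Within A the difference from WT was -0.61 with N737H and -0.81 with I593T, and within B it was -1.35 and -1.04, in log2 CPM. R820W against N737H gave 0.78 ± 0.28 and R820W against I593T 0.71 ± 0.28, both with an edgeR adjusted p of 1.00. Leaving out the B library of WT brought the N737H value to -0.66 and the I593T value to -0.59.

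BNIP3L was the other gene with a small p. It stood at 70.0 CPM in WT and 55.7 to 59.4 CPM in the variants in A, and at 72.4 and 51.1 to 58.4 in B. WT was thus the highest of its letter both times, with log2 fold changes of -0.31 ± 0.14, -0.42 ± 0.14 and -0.31 ± 0.14 for R820W, N737H and I593T (edgeR adjusted p = 1.00 in each; unadjusted p under 0.05 for N737H alone). A highest value in WT was common, for 34% of all genes in A and 33.1% in B. Of the 12 oxygen and hypoxia genes, 8 had it in A and 9 in B, so it was not particular to BNIP3L. By role, the genes of smallest p were SLC2A1 among transporters (-0.26 ± 0.18 with N737H), ALDOA among enzymes (-0.31 ± 0.22 with N737H), PFKFB4 among regulators (-0.80 ± 0.62 with N737H) and EGLN1 in oxygen sensing (-0.38 ± 0.26 with R820W), all with an edgeR adjusted p of 1.00. The wide range of -3.37 to 0.78 over the 35 genes with I593T was set by CA9 and SLC16A3.

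Over the 12 oxygen and hypoxia genes tested, 10, 12 and 12 were below WT with R820W, N737H and I593T, with median log2 fold changes of -0.23, -0.23 and -0.26. Over the 21 glycolysis genes, 11, 20 and 18 were below WT, with medians of -0.03, -0.18 and -0.12. Of all 14834 genes, 7711, 8038 and 8074 were below WT, with medians of -0.01, -0.03 and -0.02. The 7 keratinocyte markers were also all below WT with N737H and I593T (medians -0.37 and -0.21), while 5 of 7 were above WT with R820W (median 0.06). None of the 7 passed in edgeR, and their part in the medians of the other lists was not tested. Without the B library of WT the glycolysis medians were 0.22, 0.06 and 0.17 with R820W, N737H and I593T, and without its A library they were -0.18, -0.36 and -0.24. The R820W median was also above 0 with limma voom (0.03) and without the A library of R820W (0.04). The same held with at least 10 counts in at least 6 libraries (0.03). With the letter as a block it was 0.02 in edgeR and 0.01 in DESeq2. The hypoxia counts below WT were 8, 8 and 7 of 12 without the A library of WT. With at least 10 counts in at least 6 libraries they were 8, 10 and 8 of 11. The comparisons between variants also called none of the 35 genes and 0% of all genes in edgeR (1, 1 and 0 of the 35 at an unadjusted p under 0.05 for R820W against N737H, R820W against I593T and N737H against I593T). With the 3 variants averaged and set against WT, the counts were 0 of 35 and 0%, with 2 of the 35, NDRG1 and BNIP3L, at an unadjusted p under 0.05. None of the genes in the pathway lists passed in any of these comparisons. In those lists the genes with the highest means were ELOC (149 CPM) and RBX1 (142) of the HIF regulators, TFRC (853) and IGFBP3 (345) of the hypoxia targets, TXN (1584) and TXNL1 (243) of the thioredoxin list, LDHB (748) and ADPGK (126) of glycolysis, and BSG (853) and SLC16A1 (374) of the transporters.

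Split by letter, the medians of the glycolysis genes lay on opposite sides of WT. In A, the median difference from WT was 0.22 with R820W, 0.12 with N737H and 0.04 with I593T in log2 CPM. In B it was -0.14, -0.49 and -0.23. Single genes lay on both sides, as 17, 15 and 12 of 21 were above WT in A and 6, 1 and 5 in B. With N737H in B, 20 of 21 glycolysis genes were below WT, and all 15 enzymes were. The oxygen and hypoxia genes had medians below WT in both letters. In A the medians were -0.15, -0.08 and -0.13, with 2, 3 and 3 of 12 genes above WT. In B they were -0.24, -0.27 and -0.38, with 2, 1 and 1 of 12 above WT. Over all genes the medians were 0.002, -0.04 and -0.02 in A and -0.01, -0.02 and -0.03 in B. TXNIP and ARRDC4 had the reverse order of the glycolysis medians. Both were below WT in A and above WT in B with each of the 3 variants. TXNIP differed from WT by -0.07, -0.59 and -0.41 in A and by 0.78, 0.49 and 0.31 in B. Within a letter the 3 differences share 1 WT library and have no replicate.

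That WT library was at an edge of its letter for many of these genes. In A, WT was the lowest of the 4 libraries for 12 of 21 glycolysis genes, or 57.1%, against 30.6% of all genes tested. In B it was the highest for 13 of 21, or 61.9%, against 33.1% of all genes, and the highest for 9 of 12 oxygen and hypoxia genes. N737H in B, the library with the most genes counted, was the lowest for 18 of 21, or 85.7%, against 31.9% of all genes. GAPDH shows the pattern, at 3304, 4280, 4288 and 3822 CPM in A and 5067, 4273, 3379 and 4115 in B. For TPI1 the values were 2344, 2555, 2749 and 2558 in A and 3543, 2671, 2194 and 2731 in B. The part of library quality or depth in this was not tested.

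A test of the difference between the letters in the contrast of the variants with WT was added after the data were seen. It compares the mean of the 3 variants with WT in B against the same in A, with 1 WT library per letter and 2 residual degrees of freedom. None of the 35 genes passed in edgeR, against 0.195% of all genes (29 of 14834; 0.0202% higher and 0.175% lower), and 10 of the 35 (28.6%) against 2594 genes (17.5%) had an unadjusted p under 0.05. SLC16A3 had -1.82 ± 0.43 (edgeR adjusted p = 0.109), GAPDH -0.70 ± 0.22 (0.174), PGK1 -0.66 ± 0.19 (0.150) and TXNIP 0.89 ± 0.24 (0.136) on the log2 scale. ARRDC4 had 1.28 ± 0.55 (edgeR adjusted p = 0.277). The others of the 10 were TPI1 (-0.65), PGAM1 (-0.62), LDHA (-0.60), ALDOA (-0.57) and ALDOC (-0.98). The median over the glycolysis genes was -0.39, with 17 of 21 below 0, against 0.05 over all genes. It was not alone in this, as the pentose phosphate pathway lay further from 0 (median -0.645, 6 of 7 genes below 0). Of those 7 genes, 6 had an unadjusted p under 0.05 and 1 passed in edgeR. All 11 genes of pyruvate entry (median -0.29) and 6 of 7 keratinocyte markers (median -0.22) were also below 0. The further glycolysis genes were not, with a median of 0.08 and 3 of 7 below 0. SLC16A3 passed with no filter on low counts, and 2 of the 36 genes passed without either library of I593T (SLC16A3 and TXNIP) and without N737H in B (SLC16A3 and GAPDH).

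**Figure D4:**
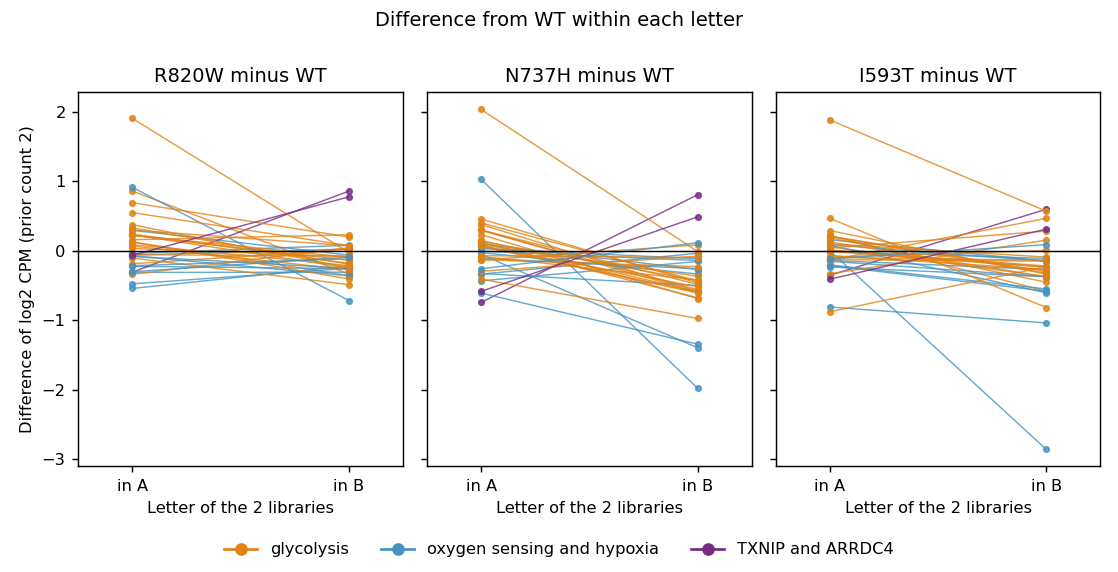
Difference of log2 CPM (prior count of 2) from the WT library of the same letter for the 35 genes tested, 1 line per gene, in A and in B, for each variant. Glycolysis genes (orange) mostly lie at or above 0 in A and below 0 in B, TXNIP and ARRDC4 (purple) the other way round, and most oxygen and hypoxia genes (blue) below 0 in both.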

How the data were processed

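The authors deposited raw read counts, 1 table with a row per gene symbol and a column per library. The submitters' processing notes name hg19, FastQC, MACS2 and DESeq2, with no version or role. How reads were aligned and counted, and whether strand was used, was not given in the sources used here, so overlapping and antisense genes cannot be told apart. Groups come from the labelled plasmid and letters from the titles.

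The 36 genes and the pathway lists were chosen with earlier results of these data known. Every one of the 36 is named. Values in all 8 libraries are given for TXNIP, ARRDC4, HIF1A, each gene past the threshold in a comparison, and per role the gene of smallest p against WT. Pathway genes past the threshold in the 8 comparisons of groups or letters are named, and otherwise the 2 of highest mean. For the added test of the difference between letters, pathway genes are not named. Any other gene named was chosen after its values were seen.

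Genes were kept by filterByExpr (14834 of 28518, 99.9% of the counts), scaled by TMM and tested with edgeR 4.0.16 in R 4.3.3 (glmQLFit, two-sided, Benjamini-Hochberg over all genes tested, threshold 0.05). Comparisons of groups used group means (4 residual degrees of freedom), and B against A used group and letter (3). Standard errors were taken from each log2 fold change and the F statistic of its test. CPM uses TMM library sizes, and log2 CPM a prior count of 2. The fits recovered most of the known changes, all of them large, when tested on simulated counts. For the comparison of groups (N737H against WT), those counts held no difference between the letters. Their spread came from the fit that includes the letter. Recovery in the real comparisons of groups, whose spread holds that difference, was therefore not measured. Alternatives were RLE scaling, no filter, at least 10 counts in at least 6 libraries, CARD14 removed, DESeq2 1.42.0, limma voom (limma 3.58.1), a replicate block, letter alone, and each library left out. The added test of the difference between letters was rerun with RLE scaling, the other filters and each library of a variant left out. No WT library was left out of it. No 2 libraries agreed within sampling noise (chi-square per gene at least 6.17). Motifs were searched on both strands of RefSeq promoters. A result that needs an item withheld for evaluation is not reported here.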

Additional observations from a re-analysis of the deposited data

Results flagged for a closer look

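Of 69 sets of 4 libraries (a gene within a letter), 2 held a library far from the other 3 by Dixon's criterion, and chance gives about 5% of sets. Both were of SLC16A3, the lactate exporter. In A, the WT library was at 1.37 CPM, against 5.32 to 5.92 in the variants. In B, the I593T library was at 18.5 CPM, against 12.2 to 12.4 in the other 3.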

How the results depend on the processing

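With 2 libraries per group, a gene not called against WT may still differ by any amount within its printed interval. None of the 35 genes passed against WT or between variants under any alternative run. Numbers of genes called moved as follows. With no filter on low counts they were 2, 2 and 8 for R820W, N737H and I593T against WT, 2 for the mean of variants, 8, 10 and 11 for R820W against N737H, R820W against I593T and N737H against I593T, 760 for B against A and 862 for the test of the difference between letters. DESeq2 called 3 for I593T, 2 for R820W against N737H, 1 for N737H against I593T and 1287 for B against A, where its median over all genes was 0.13. Same-letter libraries of 2 groups had correlated deviations from their group means in all pairs (0.31 to 0.41) but WT with N737H (0.024), which is not every pair, so the comparisons of groups carry no block and their intervals hold the difference between the letters. With the letter as a replicate block, edgeR called 1 gene for R820W against N737H, 0 in the other comparisons of groups and none of the 35 genes. DESeq2 with the replicate block called 1, 20 and 3 for R820W, N737H and I593T, 3 for the mean, and 28, 5 and 1 for the pairs. NDRG1 then had an adjusted p of 0.134 with N737H and 0.354 with I593T. B against A without the replicate block (letter alone) called 1324 genes.

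With each library left out in turn, B against A called 0 to 1069 genes, I593T against WT 0 to 3, the mean of variants 0 to 1, R820W against I593T 0 to 3, N737H against I593T 0 to 3, and the test of the difference between letters 232 to 1594. B against A called 0 genes without R820W A, 10 without R820W B, 31 and 32 without I593T A and B, and 1069 and 1010 without WT A and B. The glycolysis median ranged from -0.18 to 0.22 with R820W, -0.36 to 0.06 with N737H, -0.24 to 0.17 with I593T and 0.05 to 0.25 for B against A. The hypoxia median ranged from -0.28 to -0.10 with R820W, -0.39 to -0.22 with N737H, -0.47 to -0.10 with I593T and -0.18 to 0.0056 for B against A. For the test of the difference between letters, the libraries left out in turn were those of the variants only. The cause of the shifts in these numbers and medians was not tested. Of the 7 genes called between the letters, all 7 passed with RLE, no filter, voom, CARD14 removed and letter alone. CA9 was not tested with at least 10 counts in at least 6 libraries and had no adjusted p in DESeq2.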
